A study of Mus musculus with 10 samples.

Results

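Ventricular cardiomyocytes, the contracting muscle cells of the lower heart chambers, were compared between mice with a knockdown (KD) of VAChT and wild-type (WT) mice. VAChT, the vesicular acetylcholine transporter encoded by Slc18a3, moves acetylcholine into the vesicles from which it is released. The comparison held the 3 arrays labelled as VAChT KD cardiomyocytes and the 3 labelled as wild-type cardiomyocytes, out of 10 arrays in the series, chosen by their titles. It was described over 19938 genes, each represented by a single probe set: those with exactly 1 symbol in the platform annotation and, per gene, the highest mean over the 10 arrays. Both groups were male mice of the C57BL/6 strain, 3 months old and untreated. Each array carried RNA pooled from 2 samples. How the knockdown allele was made, and how far it lowers the transporter in the heart, are not stated in the sources used here. The remaining 4 arrays, 2 KD and 2 WT, held whole hearts of the same strain, sex and age.

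Acetylcholine is the transmitter of the parasympathetic nerves to the heart, and heart muscle cells can also make and release some of it. It acts on muscarinic receptors of the muscle cell, chiefly the M2 type, which couple to inhibitory G proteins, lower cyclic AMP and open potassium channels, and so oppose adrenergic drive. Less acetylcholine release thus removes a brake on rate and contraction, and reduced cholinergic tone is known to go with impaired contraction and remodelling in mice. The comparison asked which transcripts differ in the muscle cells of animals that load acetylcholine poorly.

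All values are log2 intensities, so a difference of 1 is a 2-fold difference in signal. The array medians over named genes lay between 6.19 and 6.27. The 6 arrays were alike: Pearson correlations over genes ran from 0.9917 to 0.9925 among WT arrays, from 0.9936 to 0.9953 among KD arrays and from 0.9926 to 0.9948 between the groups. The genotype did not lead the variation, since the first principal component, with 28.7% of the variance, placed WT replicate 1 and KD replicate 1 at 1 end and WT replicates 2 and 3 and KD replicate 2 at the other, with KD replicate 3 between. Markers of the labelled cell type were at the top of the scale. The 14 cardiomyocyte markers had a median level at the 99.9th percentile of all genes, and their per-array means lay within 0.05 of the WT mean in all 6 arrays. Markers of other heart cells were present at lower ranks, with median percentiles of 88.8 for endothelium, 71.7 for smooth muscle, 59.4 for fibroblasts, 31.8 for macrophages and 20.9 for T cells. In such bulk samples fewer cells of a type and less RNA per cell cannot be told apart. Arrays have no true zero, so no marker can be called absent. Replicates are separate arrays of pooled RNA, and nothing in the labels separates technical from biological spread in the p-values.

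Of the 19938 genes, 0 passed an adjusted p of 0.05 between KD and WT cardiomyocytes in limma (Benjamini-Hochberg over all genes; background called 0.0%; smallest adjusted p 1). An unadjusted p under 0.05 was found for 419 genes (2.1%), 197 higher (0.988%) and 222 lower (1.11%). The 3 KD arrays lay entirely above the 3 WT arrays in 597 genes (2.99%) and entirely below in 641 (3.21%), which is 6.21% of genes in all. With no difference at all, shares near 0.05 and 0.1 of genes would be expected, so both counts lay below that. The counted shares are the background for every list below, since none of the differences described here passed the threshold. The median 95% confidence interval of a difference reached 0.25 to either side, or 1.19-fold. Differences of 0.5 or more were found for 19 genes higher and 29 lower, and of 1 or more for 4 genes. The 3 WT arrays varied slightly more than the 3 KD arrays, with a median SD over genes of 0.123 against 0.114. Since an exact permutation test at this group size has 0.1 as its smallest two-sided p, single genes rest on limma's shared estimate of the spread. Much of what follows depends on single arrays. Leaving out 1 cardiomyocyte array in turn changed the sign of the median in 26 of 47 gene lists, and changed the sign or moved the value by over 1.5 times for 54 of the 60 named genes with overlapping groups and 17 of the 59 with separate groups.

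**Figure D1:**
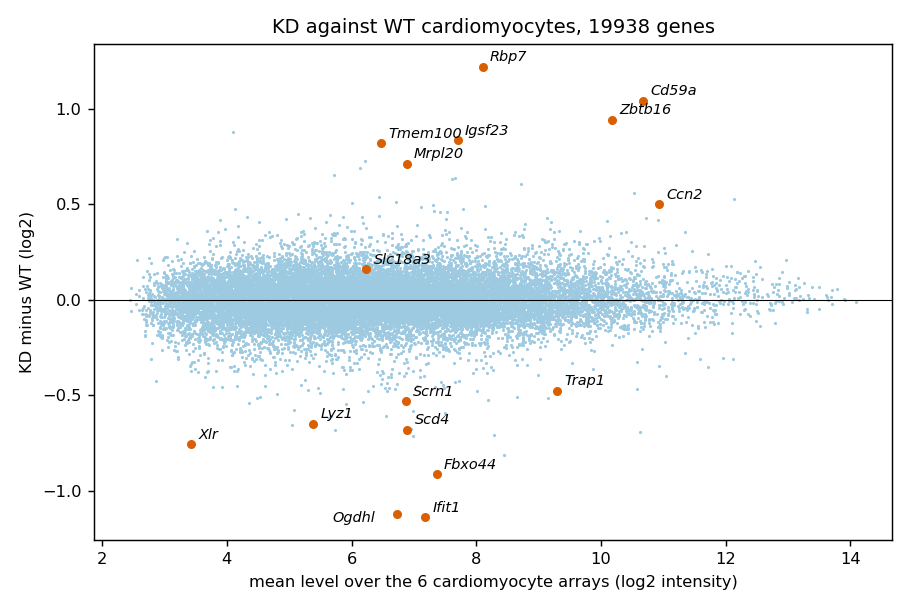
Each point is a gene: the horizontal axis gives its mean level over the 6 cardiomyocyte arrays and the vertical axis the KD minus WT difference, both in log2 units, with named genes in orange. Most genes lie within 0.25 of 0, and Rbp7 and Cd59a at the top and Ifit1 and Ogdhl at the bottom are the 4 genes that differ by 1 or more.

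The targeted gene Slc18a3, on chromosome 14, read 6.06, 6.37 and 6.04 across WT and 6.22, 6.52 and 6.21 across KD, so the groups overlapped near the array median. The difference was 0.16 (SE 0.16, 95% confidence interval -0.18 to 0.50). Where its probes lie relative to the altered part of the gene is not given in the sources used here, so this value does not check the labels. Chat, the acetylcholine synthase gene that shares the locus with Slc18a3, differed by 0.05 (SE 0.13). Among the 10 measured genes to either side of Slc18a3 on the chromosome, 9 were higher and 11 lower in KD, with a median of -0.01 against 0.00 over all genes. The nearest on the other side, Ercc6, a DNA repair gene, differed by -0.02. A neighbour 3 measured genes away stood out for another reason. Ogdhl, a relative of a citric acid cycle enzyme subunit, read 9.17 in WT replicate 1 and between 6.11 and 6.40 in the other 5 cardiomyocyte arrays. It varied among whole hearts too, at 9.28 and 7.33 in WT and 8.74 and 7.56 in KD. Its KD minus WT difference of -1.12 (SE 0.65) was thus carried by a single WT array.

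The genes that lay highest in KD, among those with separate groups and p under 0.01 before adjustment, included surface proteins, a hormone-responsive transcription factor and a secreted matrix factor. There were 65 such genes, 29 higher and 36 lower, and none passed the adjustment. Cd59a, which encodes a membrane-anchored inhibitor of the terminal complement pore, read 10.68, 9.92 and 9.87 across WT and 11.66, 11.09 and 10.84 across KD. The lowest KD array stood 0.16 above the highest WT array, and the difference was 1.04 (SE 0.25, interval 0.51 to 1.57). Its tandem paralog Cd59b, dimmer and possibly sharing signal with it, read 6.10, 5.74 and 5.73 across WT and 7.07, 6.56 and 6.11 across KD. In both paralogs the highest WT array was replicate 1 and the highest KD array was replicate 1. Zbtb16, a zinc finger transcription factor induced by glucocorticoids, read 10.42, 9.16 and 9.52 across WT and 10.70, 10.75 and 10.49 across KD. The KD arrays lay close together and the WT arrays spread over 1.25, with WT replicate 1 within 0.07 of the lowest KD array. The Zbtb16 difference was 0.94 (SE 0.28). Igsf23, an immunoglobulin superfamily gene, gave the smallest p of the 10 genes, 0.000268 before adjustment. It read 7.46, 6.99 and 7.40 across WT and 7.86, 8.30 and 8.20 across KD, a difference of 0.84 (SE 0.17).

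Ccn2, which encodes connective tissue growth factor, a matricellular protein known to be induced by stretch and by TGF-beta, was bright and tight in WT. It read 10.62, 10.69 and 10.73 across WT and 11.15, 11.44 and 10.95 across KD, a difference of 0.50 (SE 0.12, interval 0.25 to 0.76). Mrpl20, a protein of the mitochondrial ribosome, read 6.56, 6.73 and 6.29 across WT and 7.14, 7.44 and 7.13 across KD. Its difference of 0.71 was the highest among the 30 mitochondrial ribosomal protein genes listed here. Shld1, a subunit of the shieldin complex of DNA break repair, read 7.55, 7.13 and 7.21 across WT and 8.14, 8.01 and 7.64 across KD. Blvrb, an enzyme of haem breakdown, differed by 0.49 (SE 0.15) and Fam81a by 0.46 (SE 0.15). The tenth gene, Ssxb10, was dim at 4.11 ± 0.13 in WT and 4.54 ± 0.10 in KD (SD, n = 3 each). Rbp7, which binds retinol in the cytoplasm, had the highest difference of all genes at 1.22 (SE 0.30), but its arrays overlapped. It read 8.21, 6.86 and 7.40 across WT and 9.22, 8.82 and 8.10 across KD, so WT replicate 1 lay above KD replicate 3.

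The genes lowest in KD included a fatty acid desaturase, a lysozyme, an integrin chain and a mitochondrial chaperone. Scd4, the stearoyl-CoA desaturase known to be expressed mainly in heart, read 7.15, 6.97 and 7.57 across WT and 6.95, 6.02 and 6.69 across KD. The gap between the groups was 0.03, and KD replicate 2 carried much of the difference of -0.68 (SE 0.21), which was -0.41 without it. Scd1, Scd2 and Scd3, named here after their values were seen, differed by -0.06, 0.11 and 0.11, so the family did not lie lower together. Trap1, an HSP90-type chaperone of mitochondria, read 9.49, 9.47 and 9.64 across WT and 8.93, 8.86 and 9.39 across KD, a difference of -0.48 (SE 0.15). KD replicate 3 lay nearest to the WT arrays. Itgb6, an integrin chain known for releasing TGF-beta from its latent form, read 8.72, 9.04 and 8.98 across WT and 8.43, 8.19 and 8.59 across KD. Scrn1, a secernin gene, read 6.90, 7.26 and 7.25 across WT and 6.72, 6.52 and 6.58 across KD. The groups were separate in both genes, by 0.12 and 0.19.

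Lyz1, a lysozyme of phagocytes, read 5.56, 5.43 and 6.14 across WT and 5.12, 5.28 and 4.78 across KD, a difference of -0.65 (SE 0.18). C1qc, a chain of the complement starter C1q made by macrophages, read 5.95, 5.30 and 5.81 across WT and 5.17, 5.20 and 5.30 across KD. WT replicate 2 and KD replicate 3 met at the same rounded value. The remaining genes of the 10 were dim. Xlr, a lymphocyte-regulated gene of the X chromosome, had 3.81 ± 0.34 in WT and 3.05 ± 0.04 in KD (SD, n = 3 each) and the lowest difference of the 10, -0.76 (SE 0.16). Elobl differed by -0.45 (SE 0.10), Ifi214, an interferon-activated gene, by -0.45 (SE 0.12) and Slc22a30, of the organic anion transporter family, by -0.43 (SE 0.10).

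**Figure D2:**
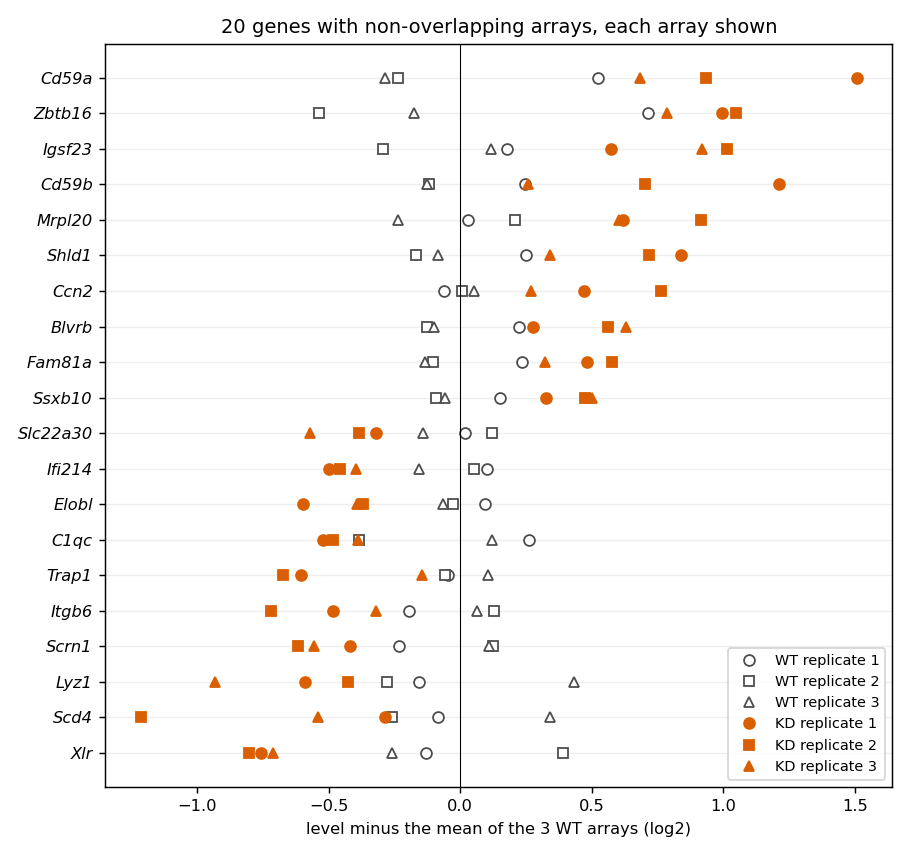
Each row is a gene and each symbol an array, plotted as its log2 level minus the mean of the 3 WT arrays; open grey symbols are WT, filled orange ones KD, and shape gives the replicate number. The KD arrays lie to the right of all WT arrays for the upper 10 genes and to the left for the lower 10, with gaps as small as 0.01 for Cd59b and 0.00 after rounding for C1qc.

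Of 9 measured genes for its synthesis, transport and breakdown (of 11 listed), 7 were higher and 2 lower, with a median of 0.03 (0.13 without KD replicate 1 and 0.01 without KD replicate 2) and 0 with non-overlapping arrays. Colq, the collagen tail that anchors acetylcholinesterase, read 7.18, 6.96 and 7.22 across WT and 7.03, 6.82 and 6.82 across KD. Bche, butyrylcholinesterase, differed by 0.24 (SE 0.16), or 0.05 with WT replicate 2 and 0.44 with WT replicate 3 left out, and Ache, acetylcholinesterase, by 0.10. Of 23 genes of receptors and inhibitory G protein effectors, 9 were higher and 14 lower, with a median of -0.03. The count turned to 14 higher and 9 lower without WT replicate 2 and to 13 and 10 without KD replicate 1, with medians of 0.02 and 0.01. Chrm2, the M2 muscarinic receptor, was among the brighter genes and read 11.44, 11.68 and 11.65 across WT and 11.62, 11.28 and 11.35 across KD. The groups overlapped through WT replicate 1 and KD replicate 1, and the difference was -0.17 (SE 0.11). Kcnj5, a subunit of the potassium channel opened by that receptor, read 8.85, 8.96 and 8.85 across WT and 8.83, 8.66 and 8.68 across KD, with all KD arrays lower. Chrna5, a nicotinic receptor subunit near the floor of the array, read 4.24, 4.16 and 4.27 across WT and 3.96, 3.89 and 3.96 across KD. Rgs2, which shortens Gq signalling, differed by 0.34 (SE 0.19), and by 0.12 without KD replicate 1 and 0.56 without KD replicate 3.

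On the opposing adrenergic side, of 18 measured genes of beta-adrenergic and cyclic AMP signalling (of 25 listed), 10 were higher and 8 lower, with a median of 0.01 and 0 with non-overlapping arrays. Without KD replicate 1 it was 6 and 12 with a median of -0.045, and without KD replicate 2 it was 13 and 5 with 0.045. The most extreme member upwards was Grk3, a receptor kinase, at 0.16 (SE 0.10). In the nitric oxide and cyclic GMP list 5 of 19 genes were higher and 14 lower, with a median of -0.01. Gucy1a1, the alpha chain of soluble guanylyl cyclase, read 6.51, 6.63 and 6.68 across WT and 6.23, 6.38 and 6.43 across KD. It was the only member with separate groups, 5.26% of the list against 3.21% of all genes below WT.

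The sarcoplasmic reticulum list had 7 of 18 genes higher and 11 lower with a median of -0.02, and the sarcomere list 10 of 24 higher and 14 lower with a median of -0.01. Both turned without WT replicate 3, to 13 of 18 and 15 of 24 higher, with medians of 0.02. In 3 sarcomere genes (12.5%) all KD arrays lay above WT, against 2.99% of all genes. Tcap and Csrp3, which both sit at the Z-disc, and Tnni3, cardiac troponin I, were these genes, with differences of 0.17, 0.08 and 0.05, of which that of Tnni3 turned to -0.01 after quantile normalization. Trdn, which anchors the calsequestrin store to the release channel, read 12.34 in WT replicate 3 and between 11.05 and 11.67 in the other 5 arrays, and its difference of -0.31 was -0.01 without that array. Genes at the cell surface leaned lower. Of 19 genes of calcium entry and calcium-dependent signalling, 15 were lower and 4 higher, with a median of -0.08 (-0.01 and 10 of 19 lower without WT replicate 3). In 3 of them (15.8%) all KD arrays lay below WT, against 3.21% of all genes. They were Cacna1h, a T-type calcium channel; Ppp3ca, the calcineurin catalytic chain; and Cacna2d1, an auxiliary chain of the L-type channel. Cacna1h read 7.05, 6.44 and 6.58 across WT and 6.26, 6.07 and 6.42 across KD, a difference of -0.44 (SE 0.15) that was -0.26 without WT replicate 1. Ppp3ca differed by -0.17 and Cacna2d1 by -0.13, each less than 1.5 times its SE.

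Potassium, sodium and gap junction channel genes had 15 of 19 members lower, with a median of -0.08. Kcna4, a transient outward potassium channel, read 5.09, 4.94 and 5.01 across WT and 4.92, 4.74 and 4.60 across KD. Kcnj11, the pore of the ATP-sensitive potassium channel, differed by -0.28 (SE 0.14), and by -0.12 without KD replicate 2. Kcne1, a regulatory subunit, differed by 0.245 (SE 0.12), and by 0.11 without WT replicate 3. The lower count came from KD replicates 2 and 3, whose list means lay at -0.155 and -0.10 relative to the WT mean, while KD replicate 1 lay at 0.02. Without KD replicate 3 the median was -0.03, with 11 of 19 lower, and without WT replicate 2 it was -0.04, with 12 of 19 lower.

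Fetal and hypertrophy genes, which hearts under load are known to switch on, had 9 of 22 members higher and 13 lower, with a median of -0.05, and 12 higher with a median of 0.00 without KD replicate 2. Ccn2 was the highest, and Ankrd1, a stretch-responsive nuclear cofactor, and Xirp2, an actin-binding protein, were at -0.30 (SE 0.21; -0.04 without KD replicate 1) and -0.32 (SE 0.16). Mef2c, a muscle transcription factor, had all KD arrays below WT with a difference of -0.15. Matrix proteins, proteases and matricellular factors had 20 of 35 members higher and a median of 0.03, but 28 without WT replicate 1 and 29 without KD replicate 1, with medians of 0.08 and 0.07. The 17 collagen genes had a median of -0.01 that hid opposite arrays: 16 were lower without KD replicate 2 (median -0.09) and 11 higher without KD replicate 1 (median 0.05). Besides Ccn2, Mmp9, a gelatin-degrading protease, and Lox, a collagen crosslinker, had all KD arrays above WT. Mmp9 was dim, at 4.49, 4.999 and 4.75 across WT and 5.17, 5.18 and 5.15 across KD, a difference of 0.42 (SE 0.13). Timp4, a protease inhibitor abundant in the heart, differed by 0.36 (SE 0.20) with overlapping arrays (0.20 without WT replicate 2, 0.615 without WT replicate 1), and Mmp14, a membrane-bound protease, was lower by a difference of -0.16.

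Fatty acid uptake and oxidation genes had 9 of 22 members higher and 13 lower with a median of -0.02, and glycolysis and glucose oxidation genes 11 of 21 higher with a median of 0.00. Fatty acid genes turned with single arrays, to 13 higher without WT replicate 3 (median 0.03), 14 without KD replicate 3 (0.03) and 6 without KD replicate 1 (-0.07), and glucose genes to 9 higher without KD replicate 1 (-0.03). Subunits of oxidative phosphorylation, the respiratory chain and ATP synthase, were higher in 30 of 34, with a median of 0.07, when 50.0% of all genes were higher. In 5 of the 34 (14.7%) all KD arrays lay above WT, against 2.99% of all genes, and in 0 below. These 5, named after their values were seen, were Ndufs7, Ndufs3 and Ndufv2 of complex I, Uqcrfs1 of complex III and Cox7b of complex IV. Each was bright and each difference small, between 0.07 and 0.11, and between 0.03 and 0.10 after quantile normalization. Their groups lay only 0.01 to 0.04 apart, and the confidence interval of each difference included 0. In limma 0 of the 34 genes had an unadjusted p under 0.05. The largest differences in the list, 0.28 for Ndufa2 and 0.21 for Cox8b, had overlapping arrays. Cox8b, the heart form of a cytochrome oxidase subunit, read 13.04, 12.97 and 12.56 across WT and 13.01, 13.02 and 13.18 across KD, so WT replicate 3 alone was low, and the difference was 0.06 without it.

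Proteins of the mitochondrial ribosome, which translates the chain subunits encoded in mitochondrial DNA, lay in the same direction. Of 30 genes 24 were higher and 6 lower, with a median of 0.125. In 2 (6.67%) all KD arrays lay above WT, against 2.99% of all genes. Mrpl9 read 8.52, 8.41 and 8.47 across WT and 8.72, 8.70 and 8.61 across KD, a difference of 0.21 (SE 0.09). Mrps28 and Mrpl12 differed by 0.33 (SE 0.15) and 0.29 (SE 0.15), and by 0.17 and 0.14 without WT replicate 3. Cytosolic ribosomal protein genes were higher in 25 of 29 measured (of 41 listed), with a median of 0.08. Many of these genes have processed copies in the genome whose transcripts the probes may not separate. Rps19 read 8.37, 8.21 and 8.36 across WT and 8.72, 8.53 and 8.56 across KD, a difference of 0.29 (SE 0.13), and Rpl13 at 0.10 also had separate groups. Rps9, at 0.34 (SE 0.22), had WT replicate 1 above all KD arrays, and ranged from 0.14 without WT replicate 3 to 0.66 without WT replicate 1.

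The WT arrays were spread in these lists. Relative to the WT mean, WT replicate 3 lay at -0.09 for oxidative phosphorylation, -0.16 for mitochondrial and -0.11 for cytosolic ribosomal proteins, and WT replicate 1 at 0.10, 0.16 and 0.17. The KD arrays lay between 0.02 and 0.21. Without WT replicate 3 the counts of higher genes were 26 of 34, 18 of 30 and 20 of 29, with medians of 0.04, 0.05 and 0.03. Without WT replicate 1 the medians were 0.10, 0.19 and 0.17. In mitochondrial ribosomal genes the median was 0.07 without KD replicate 1 or without KD replicate 3, and in cytosolic ones 0.05 without KD replicate 1.

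The circadian clock list was steady to the choice of arrays. The clock is a feedback loop in which CLOCK and BMAL1 bind E-boxes, DNA elements with the letters CACGTG, and switch on the Per and Cry repressors and output factors such as Dbp and Tef. Of 19 measured genes 14 were higher and 5 lower, with a median of 0.08 that stayed between 0.07 and 0.10 without any 1 array. In 3 (15.8%) all KD arrays lay above WT, against 2.99% of all genes. Per2 read 6.88, 6.96 and 6.78 across WT and 7.07, 7.38 and 7.16 across KD, a difference of 0.33 (SE 0.12). Dbp read 8.34, 8.41 and 8.59 across WT and 8.63, 9.08 and 8.68 across KD, a difference of 0.35 (SE 0.13) that was 0.21 without KD replicate 2. Tef, a sister factor of Dbp, read 7.91, 8.11 and 7.96 across WT and 8.14, 8.23 and 8.35 across KD, close to the groups' edges. Ciart, a repressor of the clock, had the largest difference, 0.64 (SE 0.28), and the widest spread, at 7.81, 6.51 and 7.68 across WT and 8.06, 8.18 and 7.68 across KD. Without WT replicate 2 it was 0.23. The time of day at which the hearts were taken is not given in the sources used here, and its part in these values was not tested.

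The 250 bases before the start of Ciart and of Tef are shown because both genes were at the upper end of the list and both windows hold the E-box. Sequences are from RefSeq on the GRCm38.p6 build, 5′ to 3′ on the gene's own strand, with E-box letters in capitals.
Ciart, chr3:95882229-95882478, minus strand: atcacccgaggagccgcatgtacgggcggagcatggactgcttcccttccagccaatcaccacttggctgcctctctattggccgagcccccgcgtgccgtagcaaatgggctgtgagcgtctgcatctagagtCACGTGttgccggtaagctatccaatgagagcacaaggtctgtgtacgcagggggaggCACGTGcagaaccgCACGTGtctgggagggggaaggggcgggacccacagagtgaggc
Tef, chr15:81802423-81802672, plus strand, the first of 2 starts: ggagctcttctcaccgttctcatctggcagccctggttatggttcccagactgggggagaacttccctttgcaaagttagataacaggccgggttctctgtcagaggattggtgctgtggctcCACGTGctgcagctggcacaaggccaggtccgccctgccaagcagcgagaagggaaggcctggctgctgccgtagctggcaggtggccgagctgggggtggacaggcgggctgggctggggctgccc
The Ciart window held 3 matches and the Tef window 1. The motif reads the same on both strands. Of 16 clock genes found in the promoter table, 5 had a match in such a window (31.2%), against 8.11% of the 15614 measured genes in the table and 6.02% of all windows. The other 3, named for the match, were Bhlhe41, Cry1 and Per1, at differences of -0.24, 0.08 and 0.23, so a match did not go with a single direction. Dbp and Per2, whose differences were larger than that of Tef, were not among the 5, and Per2 had no entry in the promoter table. A match is a run of letters and not a shown binding site. The list was made of clock genes, so its share of matches does not bear on KD against WT.

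Glucocorticoid-responsive genes, a list that shares Per1 with the clock, had 15 of 21 members higher and a median of 0.085. Klf15 and Klf9, transcription factors that glucocorticoids induce in muscle, differed by 0.30 (SE 0.14) and 0.16 (SE 0.09). Klf9 read 9.41, 9.33 and 9.40 across WT and 9.62, 9.46 and 9.52 across KD, with separate groups, as had Zbtb16. The list depended on single WT arrays. Relative to the WT mean, WT replicate 1 lay at 0.28, above all KD arrays at 0.01 to 0.13. The median was 0.21 with 17 of 21 higher without WT replicate 1, 0.05 with 12 of 21 higher without WT replicate 2 and 0.01 with 11 of 21 higher without WT replicate 3.

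Innate immune genes leaned lower in KD, and there the spread lay in WT. Type I interferon signals through STAT2 and IRF9 to genes whose promoters carry the interferon-stimulated response element, and these genes defend cells against viruses. Of 28 measured genes 23 were lower and 5 higher, with a median of -0.30. The per-array means of the list, relative to the WT mean, were -0.15, -0.51 and 0.66 across WT and -0.30, -0.34 and -0.26 across KD. WT replicate 3 was thus alone at the top, and WT replicate 2 lay below every KD array. Ifit1, an antiviral RNA-binding protein, read 6.94, 6.42 and 9.90 across WT and 6.48, 6.57 and 6.78 across KD. Ifit3, its partner, read 6.88, 6.17 and 8.84 across WT and 6.67, 6.33 and 6.86 across KD. Lgals3bp, a secreted glycoprotein, read 10.19 in WT replicate 3 and 7.50 to 8.22 in the other 5 arrays. Without WT replicate 3 the median turned to 0.07, with 10 of 28 genes lower. Without WT replicate 2 it was -0.56, with 26 of 28 lower.

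Stat2 was the only member of the interferon list with separate groups, which is 3.57% of the list below WT, close to the 3.21% of all genes. It read 7.10, 6.99 and 7.72 across WT and 6.95, 6.73 and 6.77 across KD. Its difference was -0.45 (SE 0.17), and -0.23 without WT replicate 3. Irgm1 and Irf7, an immunity GTPase and the factor that amplifies interferon output, differed by -0.59 (SE 0.23) and -0.61 (SE 0.29) with overlapping arrays, and by -0.255 and -0.16 without WT replicate 3. Irf8 was the highest member at 0.17. The windows of Ifit1, Ifit3 and Stat2 are shown because the first 2 mark the array that stood apart and the third is the separate gene. Capitals mark the response element core searched on both strands, GAAA, any 2 bases and GAAA, which reads TTTC, any 2 bases and TTTC where it lies on the other strand.
Ifit1, chr19:34640639-34640888, plus strand: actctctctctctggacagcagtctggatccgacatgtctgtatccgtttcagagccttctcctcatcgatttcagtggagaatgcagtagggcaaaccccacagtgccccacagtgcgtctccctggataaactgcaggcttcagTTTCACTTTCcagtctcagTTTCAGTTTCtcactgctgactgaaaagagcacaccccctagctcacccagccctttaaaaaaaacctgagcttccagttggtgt
Ifit3, chr19:34583279-34583528, plus strand: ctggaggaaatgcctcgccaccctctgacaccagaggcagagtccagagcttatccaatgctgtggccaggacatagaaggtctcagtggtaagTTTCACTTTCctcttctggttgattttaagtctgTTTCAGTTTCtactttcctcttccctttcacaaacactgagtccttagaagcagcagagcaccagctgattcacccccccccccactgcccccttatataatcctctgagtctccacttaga
Stat2, chr10:128270248-128270497, plus strand: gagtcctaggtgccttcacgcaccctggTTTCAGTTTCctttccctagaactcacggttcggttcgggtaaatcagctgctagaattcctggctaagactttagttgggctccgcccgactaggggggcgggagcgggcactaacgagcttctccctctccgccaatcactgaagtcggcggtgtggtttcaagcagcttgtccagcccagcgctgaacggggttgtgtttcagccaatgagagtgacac
Ifit1 and Ifit3 held 2 matches each and Stat2 held 1. Of 20 interferon list genes with an entry, 8 had a match, against 3.4% of measured genes and 2.98% of all windows. Genes were listed for their response to interferon, so this share of matches does not bear on KD against WT.

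Macrophage markers were lower in 16 of 18 genes, with a median of -0.18, and in 4 (22.2%) all KD arrays lay below WT, against 3.21% of all genes. The 4 were Lyz1, C1qc, the haemoglobin scavenger receptor Cd163 and the endotoxin co-receptor Cd14. The gaps between their groups were small, at 0.15, 0.00 after rounding, 0.05 and 0.04. Cd163 read 4.47, 4.58 and 4.88 across WT and 4.33, 4.42 and 4.29 across KD. Its difference was -0.30 (SE 0.15), and -0.18 without WT replicate 3. Cd14 read 5.38, 4.98 and 4.97 across WT and 4.93, 4.83 and 4.88 across KD. Its difference was -0.23, and -0.095 without WT replicate 1. C1qb differed by -0.54 (SE 0.26), with WT replicate 3 at 7.90 and the other 5 arrays between 6.30 and 6.82, and by -0.14 without that array. Lyz2, the main macrophage lysozyme, named after its values were seen, read 7.02, 5.77 and 7.66 across WT and 6.24, 6.52 and 6.25 across KD. Without WT replicate 3 the list's median was -0.06, with 12 of 18 lower. The per-array list means were -0.08, -0.17 and 0.25 across WT and -0.25, -0.15 and -0.25 across KD, so KD replicate 2 lay above WT replicate 2.

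Antigen presentation genes had 12 of 14 measured members lower (of 19 listed), with a median of -0.16, and -0.10 with 10 of 14 lower without WT replicate 3. In 3 (21.4%) all KD arrays lay below WT, against 3.21% of all genes. Tap2, part of the peptide pump into the endoplasmic reticulum, read 7.68, 7.61 and 7.56 across WT and 7.28, 7.51 and 7.29 across KD, a difference of -0.25 (SE 0.12). Tapbp, which docks class I molecules to that pump, read 8.72, 8.80 and 8.86 across WT and 8.66, 8.58 and 8.62 across KD. The third was H2-DMa, a class II loading factor, at -0.15. Cd74, the class II invariant chain, read 6.45, 5.67 and 6.45 across WT and 5.57, 5.70 and 5.65 across KD, so that WT replicate 2 lay among the KD arrays. H2-Ab1, a class II chain, differed by -0.47 (SE 0.25), and by -0.26 without WT replicate 1. Macrophages carry many of these genes, and the part of the macrophage markers in this list was not tested.

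Complement genes had 5 of 16 members higher and 11 lower with a median of -0.09, and 8 each way with a median of 0.01 once WT replicate 3 was left out. The inhibitors Cd59a and Cd59b were at the top, while Cd55, another membrane inhibitor, differed by -0.35 (SE 0.14; -0.23 without WT replicate 1), with WT replicate 2 among the KD arrays. C1ra, a protease of the first complement component, read 5.68, 5.81 and 5.86 across WT and 5.42, 5.61 and 5.47 across KD, a difference of -0.29 (SE 0.10). Toll-like receptor and cytokine signalling genes were higher in 9 and lower in 18 of 27, with a median of -0.05 (-0.01 without KD replicate 1). Tlr3, the endosomal sensor of double-stranded RNA, read 6.92, 6.83 and 7.10 across WT and 6.54, 6.46 and 6.69 across KD. Its groups were 0.14 apart, and its difference was -0.39 (SE 0.11). Myd88, the adaptor of most other Toll-like receptors, differed by -0.265 (SE 0.14; -0.13 without KD replicate 3) and Tlr7, a single-stranded RNA sensor, also had all KD arrays lower.

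The unfolded protein response list had 18 of 25 members lower with a median of -0.08, but higher in 16 of 25 with a median of 0.03 without WT replicate 3, and the median was -0.13 without WT replicate 1. Pdia4, an endoplasmic reticulum foldase, read 9.19 in that array and 8.38 to 8.61 in the others. Eif2ak3, the PERK kinase of that pathway, went the other way with all KD arrays above WT and a difference of 0.21. Cell death and survival genes were split 10 and 10 with a median of 0.00, and 5 and 15 with -0.05 without WT replicate 2. Gadd45g, a growth arrest gene, read 8.59, 8.26 and 8.36 across WT and 8.07, 8.10 and 7.99 across KD, a difference of -0.35 (SE 0.12). Immediate early genes were higher in 13 of 22 with a median of 0.05, but in 4 of 22 with a median of -0.07 without KD replicate 2 and in 9 of 22 with -0.06 without WT replicate 3. Myc, a growth-promoting transcription factor of that list, differed by -0.38 (SE 0.17), and by -0.24 without WT replicate 3. Cell cycle genes were higher in 11 of 25 and antioxidant genes in 14 of 24, with medians of -0.01 and 0.025. Without KD replicate 1 these counts were 16 and 10, and without KD replicate 2 the cell cycle count was 8. Among regulators of fuel use, Esrra, a nuclear receptor that drives mitochondrial genes, differed by 0.20 and Pdk4, which holds back pyruvate oxidation, by -0.31 (SE 0.25), which were 0.02 and -0.09 without WT replicate 3. Thrsp, a lipid synthesis factor, differed by -0.43 (SE 0.22; -0.24 without WT replicate 1) and Mlycd, malonyl-CoA decarboxylase, by -0.20 (-0.13 without KD replicate 2).

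**Figure D3:**
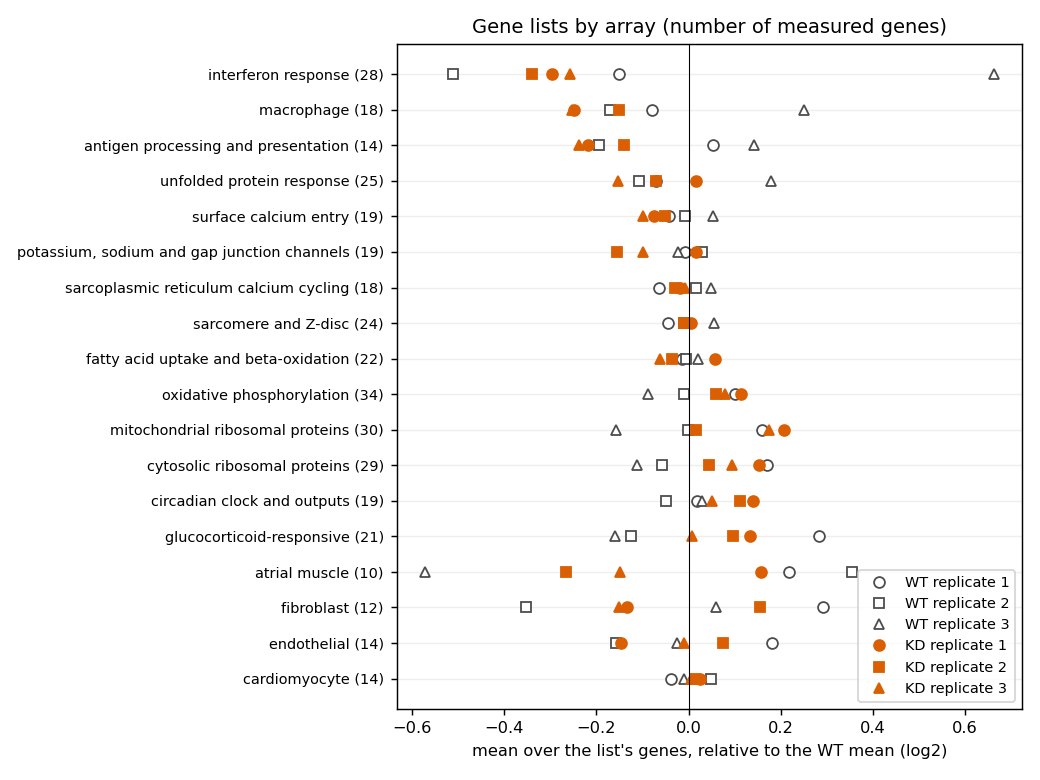
Each row is a gene list with its number of measured genes, and each symbol an array, plotted as the mean over the list relative to the mean of the 3 WT arrays (log2). WT replicate 3 stands alone at 0.66 for the interferon list and at -0.57 for atrial genes, while the cardiomyocyte markers lie within 0.05 of 0 in all 6 arrays.

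Several genes departed in 1 or 2 arrays irrespective of genotype. Gdpd3, a glycerophosphodiesterase, read 4.81 in WT replicate 1 and 4.93 in KD replicate 3 and between 8.02 and 8.67 in the other 4 arrays. In whole hearts it read 5.85 to 6.29. Plaat1, a phospholipid-modifying enzyme, read 8.25 in WT replicate 1, 5.60 and 5.67 in the other WT arrays and 6.28 to 7.29 in KD. Acta1, the skeletal form of muscle actin, read 11.60 in WT replicate 1 and 11.58 in KD replicate 3, and 9.46 to 10.43 elsewhere. KD replicate 1 was high in Tmem100, a membrane protein of the BMP pathway, at 8.24 against 5.57 to 6.57, and low in Fbxo44, a ubiquitin ligase adaptor, at 5.78 against 7.18 to 8.10. KD replicate 3 was high in Fmn1, a formin, at 7.17 against 5.23 to 5.55, and in Casq1, the skeletal calsequestrin, at 8.49 against 7.11 to 7.47.

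Atrial muscle genes belonged to this kind. The atrial light chain Myl7 read 9.38, 9.64 and 6.33 across WT and 8.73, 7.35 and 7.70 across KD, and its partner Myl4 11.30, 11.48 and 8.73 across WT and 10.72, 10.06 and 10.29 across KD. WT replicate 3 was lowest in both, and the labels give all 6 arrays as ventricular. The atrial list had 7 of 10 genes lower with a median of -0.08, but 7 higher with 0.06 without WT replicate 2 and a median of -0.21 without WT replicate 3. It had per-array means of 0.22, 0.355 and -0.57 across WT and 0.16, -0.27 and -0.15 across KD. Fibroblast and endothelial markers varied between arrays as well, from -0.35 (WT replicate 2) to 0.29 (WT replicate 1) for fibroblasts and from -0.16 to 0.18 for endothelium, with medians of -0.05 and 0.00. The fibroblast median ran from -0.20 without WT replicate 2 to 0.07 without WT replicate 1, and the endothelial one from -0.125 to 0.08 without the same arrays. Cdh5, the endothelial cadherin, differed by -0.24 (SE 0.10). Whether the share of other cells in the preparations bears on single genes was not tested.

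**Figure D4:**
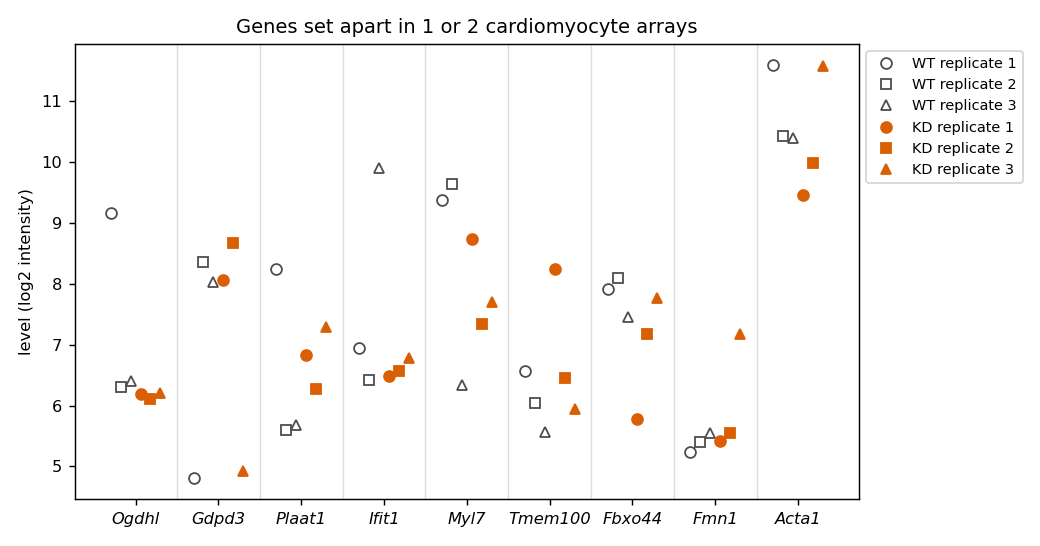
Log2 level of 9 genes in each of the 6 cardiomyocyte arrays; open grey symbols are WT, filled orange ones KD, and shape gives the replicate number. Ogdhl is high in WT replicate 1 alone, Gdpd3 low in WT replicate 1 and KD replicate 3, and Ifit1 high in WT replicate 3 alone.

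Whole hearts of the same genotypes served to ask whether the cardiomyocyte differences were also seen in the intact organ. The 2 tissues were apparently normalized apart, so only differences within a tissue were compared. The difference between the KD effects passed the adjusted threshold in 0 of 19938 genes (0.0%; limma, smallest adjusted p 0.999), and 696 genes (3.49%) had an unadjusted p under 0.05. The count stayed at 0 with any 1 cardiomyocyte array left out. It did not stay at 0 for every heart array left out, but those fits hold a single array in a heart group, so their counts are not read as a result. T cell and thymocyte markers had a heart median of 1.45 in the full data. Predicted genes, clone names, pseudogenes, small RNAs and olfactory or vomeronasal receptors were left out of the naming. Among the other genes the smallest p-values belonged to H4c14, H4c3, Mns1, Ccn2 and Ckap2l. H4c14 and H4c3 are histone H4 genes, Mns1 a gene of cilia and sperm tails and Ckap2l a spindle gene. In all but Ccn2 the heart difference was positive, at 0.94, 0.84, 0.72 and 0.36, against -0.08, -0.31, -0.08 and -0.29 in cardiomyocytes. Ccn2 ran the other way, with 11.04 and 10.92 in WT hearts and 10.58 and 10.67 in KD hearts. Its heart difference was -0.35 against 0.50 in cardiomyocytes, and the difference between them 0.85 (SE 0.19; adjusted p 0.999 in limma).

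Cd59a showed the same opposition, at -0.65 in hearts, with 9.93 and 10.65 in the WT hearts and 9.70 and 9.58 in the KD hearts. The difference between the effects was 1.70 (SE 0.39; adjusted p 0.999 in limma). Zbtb16, Igsf23, Mrpl20 and Shld1 had heart differences of -0.09, -0.14, -0.13 and -0.23. Of the 29 genes higher in cardiomyocytes at an unadjusted p under 0.01 with separate arrays, 12 were higher in hearts (41.4%), against 52.5% of all genes. Of the 36 lower ones 23 were lower in hearts (63.9%), against 47.4% of all genes. A heart difference in the same direction and of at least 0.35 was found for 6 of the 65 genes. Among them were Scd4 at -0.61, Tlr3 at -0.44, Trap1 at -0.36, Mmp9 at 0.36 and the dim Ssxb10 at 0.47. The cut of 0.35 was not planned. The share of all genes past it was not counted, so this count has no background to be read against. Among lists, oxidative phosphorylation had a heart median of -0.20 against 0.07 in cardiomyocytes, mitochondrial ribosomal proteins -0.11 against 0.125, and the clock 0.02 against 0.08. Lower heart values were not particular to the mitochondrial lists. Cardiomyocyte markers were lower in KD hearts in 14 of 14 genes (median -0.09), fatty acid genes in 22 of 22 (-0.275) and sarcomere genes in 20 of 24 (-0.13). Other lists were higher there, among them T cell and thymocyte markers in 12 of 12 genes and cell cycle genes in 25 of 25. The interferon and macrophage lists had heart medians of -0.06 and 0.01. Differences between tissues in these medians were not tested.

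**Figure D5:**
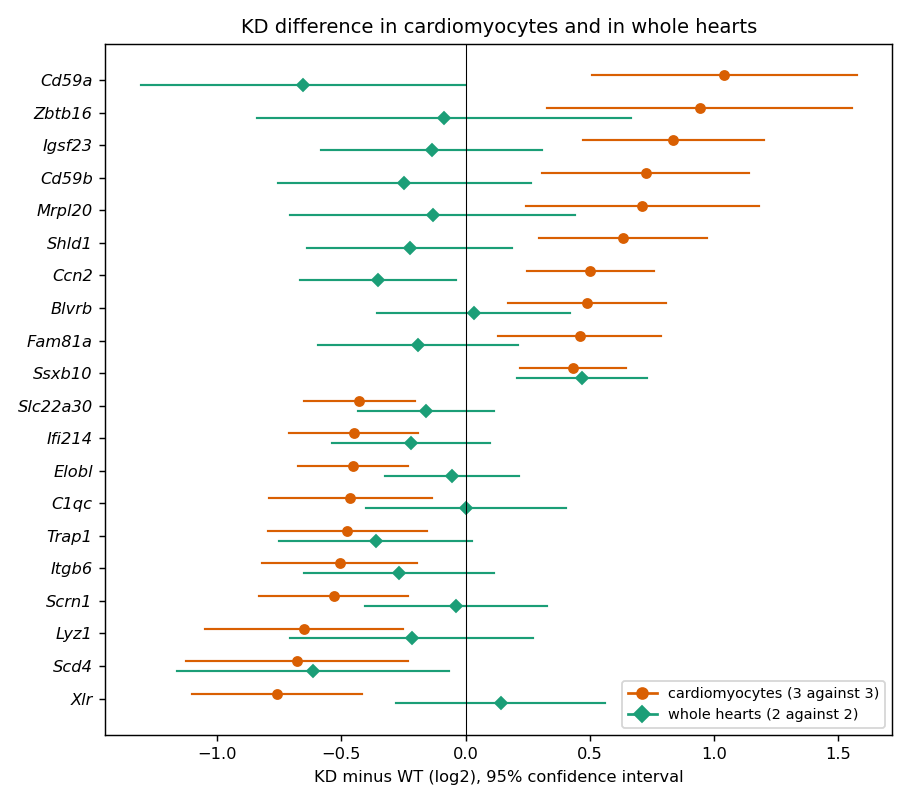
KD minus WT difference in log2 units with its 95% confidence interval for the 20 genes chosen in cardiomyocytes (orange circles, 3 arrays against 3) and for the same genes in whole hearts (green diamonds, 2 against 2). Scd4 and Ssxb10 have heart intervals on the same side of 0 as in cardiomyocytes, while Ccn2 and Cd59a have heart intervals below 0 and cardiomyocyte intervals above it.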

How the data were processed

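The authors deposited log2 intensities per probe set, made with Partek and RMA (background correction, quantile normalization and summarization of probes) per the submitters' processing notes; their versions are not given there. Per the labels' protocols, cardiomyocyte and heart RNA were labelled by partly different manuals, and array medians over all probe sets were 5.82 to 5.93 for cardiomyocytes and 7.25 to 7.31 for hearts, so levels were not compared across tissues. The number of arrays limits the precision.

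Of 35556 probe sets, 21789 had 1 gene symbol in the platform annotation, 1621 had several and 12146 were not listed, and 999 genes had several probe sets. The log2 values were fitted in limma 3.58.1 (R 4.3.3) over all 10 arrays with 4 group means, trended eBayes (residual df 6, prior df 6.81) and two-sided Benjamini-Hochberg adjustment at 0.05. The script was tested on simulated data. Genes were named by rule. These were Slc18a3, Chat and 10 per direction with the largest difference among those at an unadjusted p under 0.01 with separate arrays. Also named were the 4 smallest p-values per list, array deviators, the 5 smallest p-values between tissues, neighbours and markers. Predicted genes, clone names, pseudogenes, small RNAs and olfactory or vomeronasal receptors were left out. The members and lists were chosen with earlier results of these data known. Alternatives covered the arrays fitted, the replicate block, normalization, a level filter, probe set summaries, array weights, eBayes settings, the threshold and single arrays left out. List counts without each array, and the mention of T cell genes in the hearts, were added after seeing the data. Promoter windows are from RefSeq.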

Additional observations from a re-analysis of the deposited data

How the results depend on the processing

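The count of genes past the adjusted threshold stayed at 0 in the cardiomyocyte comparison under every alternative run, with the smallest adjusted p in limma at 0.0885 (without WT cardiomyocyte replicate 1). At an unadjusted p under 0.05 the 419 genes became 165 among the genes above the median level, 661 with a random replicate block and 738 with array weights, and 359 to 843 with 1 array left out. The difference between tissues passed in 0 to 237 genes with 1 array left out. Every count above 0 in that range came from leaving out a heart array, which leaves a single array in a heart group, so it is not read as a result. With any 1 cardiomyocyte array left out the count stayed at 0. Same-numbered arrays correlated in their deviations at 0.152, 0.131 and -0.052, so the numbers were not taken to pair the samples. A fixed replicate block gave 0 calls and 600 genes at an unadjusted p under 0.05. With 1 array left out, the difference changed sign for Ifit3 (-1.237 to 0.093), Gdpd3 (-0.965 to 1.31), Myl7 (-1.587 to 0.068), Myl4 (-1.04 to 0.34), Casq1 (-0.034 to 0.602), Plaat1 (-0.165 to 1.16), Lgals3bp (-1.275 to 0.067), H4c14 (-0.155 to 0.007), Scd1 (-0.187 to 0.051), Scd2 (-0.036 to 0.204), Cry1 (-0.02 to 0.15) and Ercc6 (-0.057 to 0.020). Array weights gave -0.77 for Gdpd3 and 0.02 for Acta1, and quantile normalization gave -0.013 for Tnni3. The causes were not tested. Of 48 list medians, 3 moved outside the settings that leave out an array, the macrophage median to -0.48 among genes above the median level, where fewer genes were measured.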

Other observations

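Several other marker and gene lists had medians within 0.04 of 0. T cell and thymocyte markers were higher in 6 and lower in 6 of 12 genes with a median of -0.01, neutrophil markers in 5 and 5 of 10 with a median of 0.00, and smooth muscle and pericyte markers in 6 and 6 of 12 with a median of 0.01. Neuron and Schwann cell markers, the cells that bring acetylcholine to the heart, had 6 of 9 genes higher and a median of 0.04. Heat shock genes had 8 of 18 higher, and ubiquitin, proteasome and autophagy genes 10 of 23, with medians of 0.00 and -0.03. Mitochondrial chaperones and import proteins had 9 of 15 higher with a median of 0.01, with Trap1 as the lowest member. The signs of the T cell, neutrophil, smooth muscle, heat shock, ubiquitin and mitochondrial chaperone medians changed when single arrays were left out.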
